A study of Mus musculus with 6 samples.

Results

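The comparison of Alkbh5 KO with wild-type (WT) chromatin accessibility rests on 4 of the 6 ATAC-seq libraries of the series, 2 Alkbh5 KO and 2 WT. All came from E14TG2a, an established mouse embryonic stem cell line. The KO genotype is also written Alkbh5-/- in the series' description, and the remaining 2 libraries carry an allele called Alkbh5 del-cIDR. Cells of each genotype were grown in the same medium, which held 3 µM CHIR99021, a GSK3 inhibitor, and 1 µM PD0325901, a MEK inhibitor. It also held LIF at 1000 U/ml and serum at 15%. In each library 10 µl of spike-in nuclei went into the tube before the transposase. The labels do not say how many cell lines or clones stand behind a genotype, nor whether the replicates were separate cultures, so line and genotype cannot be told apart and the spread between replicates may be technical.

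ALKBH5 removes N6-methyladenosine from RNA, a mark that methyltransferases write mostly on messenger RNA and that reader proteins recognise. ATAC-seq uses a transposase that cuts DNA where nucleosomes and other proteins leave it exposed, so a peak marks a promoter, an enhancer or another open element. Embryonic stem cells held in inhibitors of MEK and GSK3 with LIF are kept close to the naive state of the early embryo.

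Overlapping peaks of the 4 libraries, down to a shared 1 bp, were joined to form regions. The comparison was made on the 16 reference autosomes, which are chromosomes 1 to 19 without 6, 8 and 11, so that chromosomes that stood apart as a whole could not set the result. These held 195859 regions, out of 247437 on all assembled chromosomes in the 4 libraries and 259191 in all 6 libraries. Regions are given by chromosome and position (GRCm39), since the lists carry no gene names. Whether a region lies in a gene, and the peaks at Alkbh5 and at stem cell marker genes, were not analysed here, so the labels were not checked against them.

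The KO libraries had shorter peak lists than the WT libraries. KO replicate 1 held 127611 peaks on the reference autosomes and KO replicate 2 held 116779, while the WT lists held 155260 and 147856. The means were 122195 ± 7659 in KO and 151558 ± 5235 in WT (SD, n = 2), and the genotypes did not overlap. KO peaks covered 46.1 ± 1.80 Mb and WT peaks 52.2 ± 1.68 Mb (SD, n = 2). With 2 libraries against 2, an exact two-sided permutation test cannot give a p below 0.333, so no p is given for any region or count.

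Relative depth did not order the lists by length. Read from the background of each list and set to 1 in WT replicate 1, it was 1.10 in KO replicate 1, 0.820 in KO replicate 2 and 1.10 in WT replicate 2. KO replicate 2, the shallowest library, had the shortest list, but WT replicate 1 had a longer list than WT replicate 2 at a lower depth. Between KO replicate 1 and WT replicate 2, of like depth, 39038 regions were called in the WT library alone and 20231 in the KO library alone. This is 1 pair of libraries, and the depths rest on an assumed fragment length. The part of depth in the difference was not tested.

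Regions called in both WT libraries and in neither KO library (WT-only) numbered 16188, or 8.27% of all regions. Regions called in both KO libraries and in neither WT library (KO-only) numbered 3228, or 1.65%. Calls in all 4 libraries covered 86615 regions, 44.2% of the total. The WT-only regions made up 13.4% of the 120592 with calls in both WT libraries, and the KO-only regions 3.35% of the 96372 with calls in both KO libraries. A region without a call may be open below the calling limit, and a lower summit in a bulk library cannot tell fewer cells with an open element from less opening in each cell.

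**Figure D1:**
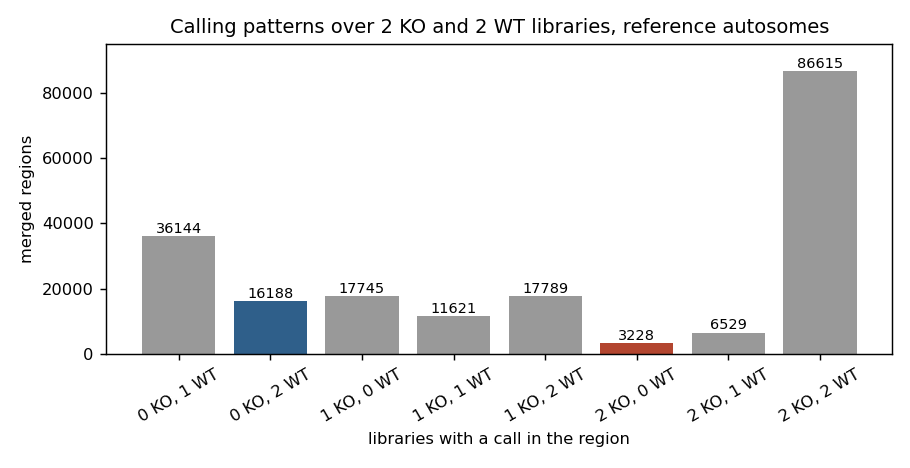
Number of merged regions (y axis) for each combination of KO and WT libraries that called them (x axis), on the reference autosomes. Regions called in all 4 libraries make up the tallest bar (86615); the WT-only bar (16188, blue) is taller than the KO-only bar (3228, red).

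The counts in the full lists are bound to list length, since a longer list holds more calls that others lack. When every list was reduced to its 116779 highest-fold peaks, the length of the shortest, there were 8376 WT-only regions, 8.56% of those with calls in both WT libraries. KO-only regions then numbered 6970, or 7.49% of those with calls in both KO libraries. Lists of one length bring both counts together by construction, so this does not show what lies behind the difference in the full lists. Patterns with exactly 1 KO and 1 WT library serve for comparison. In the full lists they held 1992 to 3784 regions each, a range that takes in the KO-only count. At equal length they held 1974 to 2509 regions, below both the KO-only and the WT-only count. Of the regions called in either library of a pair, both called 67.1% for the KO replicates and 69.0% for the WT replicates, against 58.7% to 63.9% for pairs of 1 KO and 1 WT library.

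Most of the regions called in 1 genotype were weak. The deposited fold is the height of a summit over the local background of its own library. Among WT-only regions, the median summit height was 12 and 13 tags in the WT libraries, against 30 and 33 tags in the same libraries for regions called in all 4. KO-only regions had medians of 11 and 9 tags in the KO libraries, against 30 and 23 for regions called in all 4. Taking the lower of a region's positions in its own pair of lists, the median KO-only region stood at percentile 11.6 of fold and the median WT-only region at 19.0. Above percentile 50 of both their lists lay 50 KO-only regions (1.55% of them) and 1599 WT-only regions (9.88%).

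Calls were lost in KO along the whole lower range of WT strength. Regions with calls in both WT libraries were split by fold into 10 strength classes of equal size, from 1 (weakest) to 10 (strongest). In class 1, 41.0% had no call in a KO library, in class 4 the share was 16.9%, and in class 10 it was 0.0663%, which is 8 regions. The mirror comparison gave 17.4% of KO regions without a WT call in class 1, 1.61% in class 4 and 0.0415%, or 4 regions, in class 10. Strong elements were thus called in both genotypes with few exceptions.

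**Figure D2:**
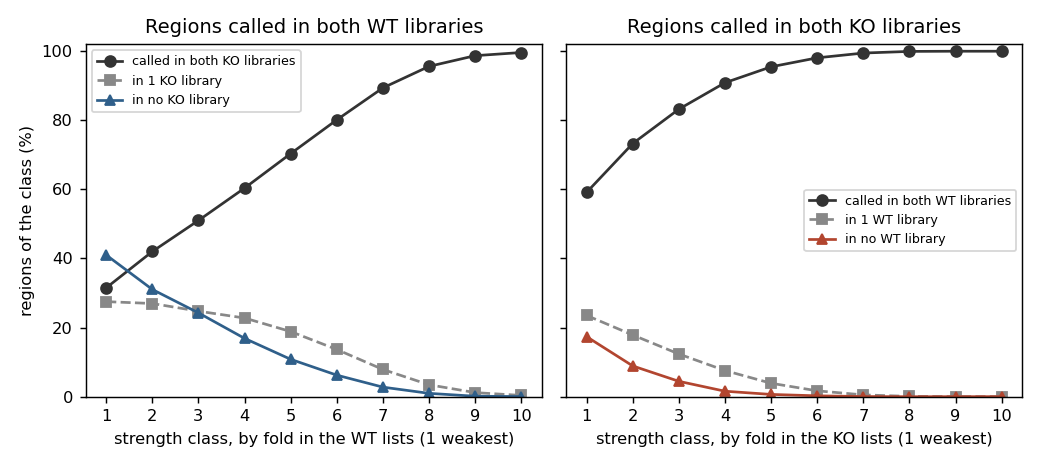
Share of regions (y axis, percent) called in both, 1 or no library of the other genotype, by strength class in the genotype's own lists (x axis, 1 is weakest), for regions called in both WT libraries (left) and in both KO libraries (right). The share with no KO call falls from 41.0% to 0.0663% on the left, and the share with no WT call from 17.4% to 0.0415% on the right.

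Most of the strongest WT-only regions had del-cIDR calls. Over all WT-only regions, 31.3% had calls in both del-cIDR libraries. Strong regions had calls in most lists: in WT strength class 10, 99.5% of regions had calls in both KO libraries. Of the 10 WT-only regions with the highest fold, 8 had calls in both del-cIDR libraries and 2 in neither. A peak under 250 bp in a WT library was found in 6 of them. The tallest, chr16:91331471-91331585, had WT summits of 1175 and 1363 tags and no call in any mutant library. Its peaks were 114 and 115 bp wide, where the narrowest peaks in the WT lists were 114 and 113 bp. The narrowest peaks were 121 and 130 bp in the KO lists and 123 and 125 bp in the del-cIDR lists. No mutant list held a peak this narrow, so its missing calls cannot be told apart from that limit on width. The region chr14:122151488-122151778 had WT summits of 297 and 306 tags and del-cIDR summits of 273 and 268. Here the KO libraries alone lacked a call, at a place where the other libraries stood far above their median summits of 18 to 21 tags.

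Other strong WT-only regions showed the same split between KO and the remaining genotypes. For chr5:135501279-135501508, summits were 223 and 225 tags in WT and 224 in either del-cIDR library. For chr5:136408303-136408532, they were 100 and 99 in WT, and in del-cIDR 85 and 91. For chr12:22186452-22186903, they were 46 and 67 in WT, and in del-cIDR 68 and 49. Heights were alike in WT and del-cIDR at these places, and both KO libraries lacked a peak. The region chr13:66711771-66711886 differed from them, with WT summits of 42 and 45 tags and no call in KO or del-cIDR. Its WT peaks were 114 and 116 bp wide, narrower than any peak in a KO or del-cIDR list. Its missing calls cannot be told apart from that limit on width.

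Requiring peaks of at least 250 bp in both WT libraries gave broader examples. The region chr7:26293630-26294043 had WT summits of 31 and 32 tags and del-cIDR summits of 16 and 18. For chr19:27618277-27618910, summits were 49 and 30 tags in WT, and in del-cIDR 31 and 37. The region chr15:84788512-84788875, with WT summits of 37 and 35 tags, was the 1 of these 10 without a del-cIDR call. The other 9 had calls in both del-cIDR libraries. Of all WT-only regions, 1829 (11.3%) were this wide in both WT lists.

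Of the 10 highest KO-only regions, which held 20 to 214 tags, 8 had a peak under 250 bp in a KO library. The highest, chr13:97327053-97327767, had a summit of 214 tags in KO replicate 1, where its peak was 122 bp wide, and of 141 tags in KO replicate 2, where it was 714 bp wide. It also had a call in del-cIDR replicate 1, at 201 tags, and none in del-cIDR replicate 2. Summits at chr17:29319193-29319589 were 127 and 120 tags in KO, and those at chr17:24198691-24198874 were 61 and 55, in peaks of 184 and 164 bp, with no call in WT or del-cIDR. Both regions had calls in the 2 KO libraries and in no other.

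Of the 10 highest KO-only regions, 3 had calls in both del-cIDR libraries, 3 in 1 of them and 4 in neither. Over all KO-only regions, 11.8% had calls in both and 59.3% in neither. The region chr9:37450533-37451042 had KO summits of 53 and 49 tags and del-cIDR summits of 55 and 64, so that WT alone lacked a call. Among the broader ones, chr18:40017146-40017619 had KO summits of 26 and 31 tags and del-cIDR summits of 7 and 13. At chr16:56806961-56807373 the KO summits were 25 and 18 tags and each del-cIDR summit 14. In both, the del-cIDR summits were lower than the KO summits. Of all KO-only regions, 505 (15.6%) were at least 250 bp wide in both KO lists.

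Over whole sets, del-cIDR calls differed by direction. The del-cIDR libraries took no part in choosing the sets, but their lists, of 126699 and 124404 peaks on the reference autosomes, were short like those of KO. With all 6 libraries merged, both del-cIDR libraries had a call in 31.3% of 16026 WT-only regions, and neither had one in 36.1%. For 3202 KO-only regions the shares were 11.8% and 59.3%. For 86360 regions with calls in all 4 KO and WT libraries they were 90.8% and 2.36%. Most KO-only regions therefore had no call in del-cIDR, while WT-only regions split about evenly between calls in both, 1 or neither del-cIDR library. The sets were not matched for strength, and KO-only regions stood lower in their own lists (median percentile 11.6 against 19.0).

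Surroundings were sparser for regions called in 1 genotype when counted over long distances, and alike nearby. The number of regions called in all 4 libraries within 500 kb on either side had a median of 56 around KO-only, 60 around WT-only and 65 around regions called in all 4. The lower quartiles were 30, 39 and 42 in the same order. The 53889 regions called in 1 library only had a median of 57 and a lower quartile of 35. Sparser surroundings were thus not particular to KO-only and WT-only regions. Of those called in 1 library only, 39.8% had a region called in all 4 within 5 kb. A region called in all 4 lay within 5 kb of 41.1% of KO-only regions, 42.9% of WT-only regions and 41.0% of the common regions themselves. Their peaks were narrower than those of common regions, with median widths of 201 and 208 bp in the KO lists for KO-only regions and 184 and 175 bp in the WT lists for WT-only regions. Common regions had median widths of 375, 368, 385 and 376 bp in KO replicates 1 and 2 and WT replicates 1 and 2.

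The 86615 regions called in all 4 libraries allowed a comparison over the same regions in every list. Within each library they were ranked by fold from percentile 0 to 100 over this same set. A region was counted as higher in KO when its lower KO percentile lay at least 10 points above its higher WT percentile, and as lower in the mirror case. By this rule 6312 regions (7.29%) ranked higher and 6918 (7.99%) ranked lower in KO. With no minimum gap, both KO ranks lay above both WT ranks in 27.2% of regions and below them in 22.8%.

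Changes in rank were of like number in both directions and of moderate size. Every library was ranked over the same regions, so rises and falls in rank offset each other by construction. A general gain or loss in KO could not show in these counts. Regions ranked higher had median percentiles of 54.6 and 55.2 in the KO libraries and 27.4 and 27.6 in WT. Their median summits were 32 and 25 tags in KO and 19 and 22 in WT. Regions ranked lower had median percentiles of 28.3 and 26.4 in KO and 58.8 and 58.6 in WT, and median summits of 17 and 13 tags in KO against 29 and 32 in WT. In both sets the replicates of a genotype had median percentiles within a few points of each other. The rule asks both libraries of a genotype to lie on the same side. It therefore favours this closeness and the size of the differences.

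Rank changes were rare among the strongest regions. By mean rank over the 4 libraries the regions were again split into 10 classes. In classes 3 to 5, 11.7% to 11.9% ranked higher and 11.7% to 13.01% lower. In class 10, the strongest, 0.0808% ranked higher and 0.300% lower. A region near either end of the scale has little room to pass a 10-point gap, which bounds these shares there.

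Libraries of different genotypes differed more in rank than replicates did. The median size of the difference in a region's percentile was 6.83 points between the KO replicates and 6.35 between the WT replicates, against 8.44 to 9.18 points between a KO and a WT library. Spearman's rho across the 86615 regions, which are not independent and share each library's depth, was 0.90 and 0.92 within genotypes and 0.83 to 0.85 between them. Summit positions did not separate the genotypes in this way. The median distance between summits of a region was 24 and 21 bp within genotypes and 22 to 26 bp between them.

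**Figure D3:**
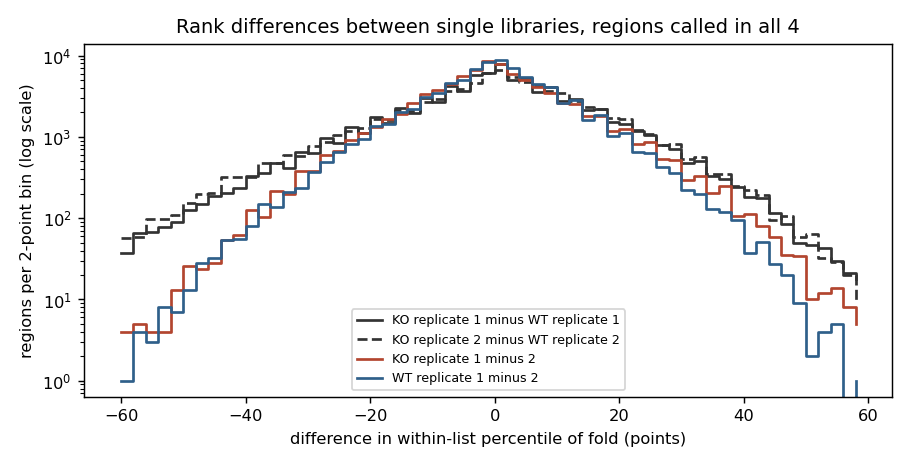
Number of common regions (y axis, log scale, bins of 2 points) by difference in within-list percentile of fold (x axis, points) for 2 pairs of 1 KO and 1 WT library (black) and for the replicate pairs of KO (red) and WT (blue). The black curves lie above the replicate curves in both tails, and the median size of a difference was 8.44 to 9.18 points between genotypes and 6.35 to 6.83 points within them.

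The directions were then read in libraries that had not been used to choose the regions, a check chosen after seeing the data. Regions were picked where 1 KO library differed from 1 WT library by at least 20 points, and read in the other KO and WT library, in each of the 4 possible ways. Of 7510 to 8546 regions picked as higher in KO, 73.7% to 76.4% were higher in the other pair too, against 52.3% to 52.9% of all common regions. Their median difference in the other pair was 10.6 to 11.9 points. Of 8456 to 9612 regions picked as lower, 76.3% to 78.8% were lower in the other pair, against 47.1% to 47.7% of all, with median differences of -15.8 to -13.5 points. About 3 in 4 directions were repeated, and the differences were smaller than where they had been picked.

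Calls were read in the same way. Of the regions called in 1 KO library and not in 1 WT library, 15.96% to 19.8% had the same pattern in the other pair, against 8.31% to 10.3% of all regions. For calls in WT and not in KO the shares were 30.5% to 41.5%, against 19.9% to 27.1% of all. The shares over all regions are lowered by the 86615 called in all 4 libraries, which can never have such a pattern. None of those could be picked, so the higher shares among picked regions do not show that the pattern follows genotype. Most differences in calls between 1 KO and 1 WT library were not repeated in the other pair. These shares need both a call and a missing call, and cannot be set against those of the rank directions, which need a sign only.

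The 15 regions with the widest gap in each direction show what the ranks mean in tags. Among those higher in KO, KO summits held 19 to 39 tags and WT summits 6 to 15. The first, chr10:51441134-51441703, had KO summits of 29 and 28 tags, WT summits of 10 and 11, and no del-cIDR call. At chr14:27569373-27569737 the KO summits were 31 and 20 tags, the WT summits 8 and 9, and the del-cIDR summits 19 and 12. At chr9:121698717-121699470 the KO summits were 39 and 32 tags, the WT summits 12 and 14, and the del-cIDR summits 12 and 14. In each of these 3 regions both KO libraries lay above both WT libraries, and in the last the del-cIDR libraries lay at the WT level.

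Further regions on this side were broad in every list or strong in KO. The region chr9:16510253-16510979 had KO summits of 29 and 24 tags, in peaks of 706 and 691 bp, and a summit of 11 tags in either WT library, in peaks of 443 and 476 bp. At chr7:138151489-138151911 the KO summits were 30 and 34 tags, the WT summits 13 and 12, and the del-cIDR summits 22 and 16. Of the 15 regions, 13 had calls in both del-cIDR libraries, near the share of 90.8% over all common regions. The del-cIDR medians of 14 and 12 tags were nearer to the WT medians of 10 and 11 than to the KO medians of 29 and 24.

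Regions lower in KO had larger gaps, 58.5 to 75.5 points against 48.0 to 58.9 points on the other side. Their KO summits held 6 to 25 tags and their WT summits 28 to 83. The widest gap was at chr13:66816528-66817048, with KO summits of 10 and 7 tags, WT summits of 49 and 38, and del-cIDR summits of 29 and 29. At chr3:122888724-122889133 the KO summits were 12 and 7 tags, the WT summits 48 and 53, and the del-cIDR summits 86 and 71. At chr10:127289362-127290051 the KO summits were 11 and 11 tags, the WT summits 77 and 83, and the del-cIDR summits 57 and 47. In these the KO libraries stood apart from the other genotypes.

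Other regions on this side had the same order. At chr15:37987894-37988439 the KO summits were 20 and 9 tags, the WT summits 65 and 69, and the del-cIDR summits 60 and 53. Summits at chr13:9360881-9361329 were 25 and 19 tags in KO, 81 and 78 in WT, and in del-cIDR 67 and 78. Those at chr2:102250432-102250869 were 13 and 10 tags in KO, 51 and 61 in WT, and in del-cIDR 54 and 50. Each of the 15 had calls in both del-cIDR libraries, as had 90.8% of all common regions. Their median summits were 37 and 33 tags in del-cIDR, against 46 and 41 in WT and 12 and 9 in KO. In all 15 regions of either direction the KO and WT summits did not overlap in tags, which the choice by gap favours. With no such choice, both KO ranks by fold lay above both WT ranks in 27.2% of common regions and below them in 22.8%.

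**Figure D4:**
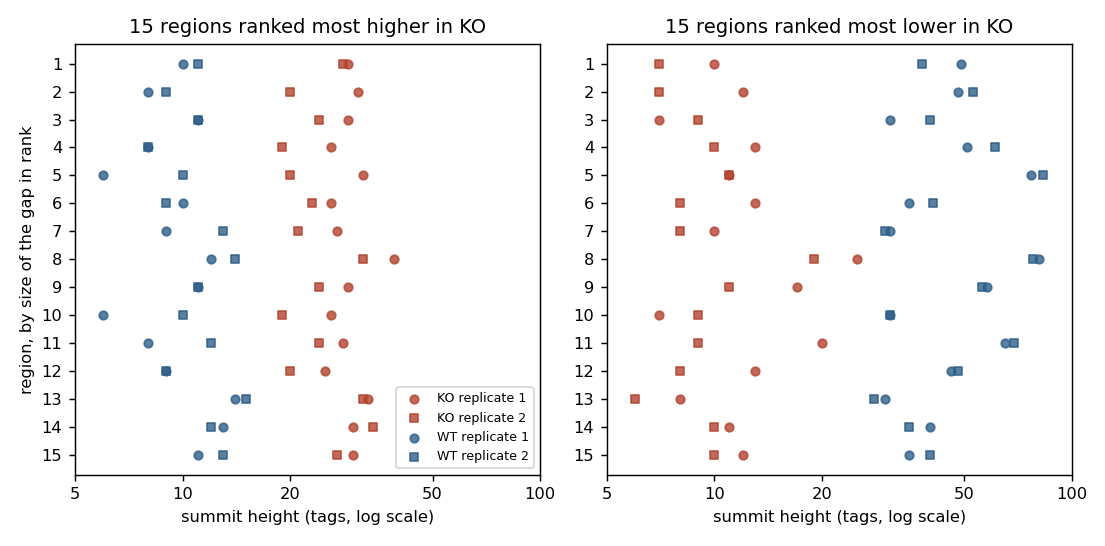
Summit height (x axis, tags, log scale) in each KO (red) and WT (blue) library of the 15 common regions ranked most higher in KO (left) and most lower in KO (right), in order of the gap in rank (y axis). On the left KO summits lie at 19 to 39 tags and WT summits at 6 to 15, and on the right KO summits lie at 6 to 25 tags and WT summits at 28 to 83.

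The del-cIDR libraries, which had no part in the choice, had median percentiles between those of KO and WT and nearer to WT. A choice by the gap between KO and WT favours a middle place for any other library. Over 78451 regions called in all 6 libraries, 5925 ranked higher in KO and had median del-cIDR percentiles of 36.5 and 36.7. WT stood at 28.2 and 28.5 there and KO at 54.5 and 55.7. The 6462 regions ranked lower had del-cIDR medians of 51.9 and 50.9, with WT at 59.1 and 59.2 and KO at 27.9 and 26.1. The mean del-cIDR percentile was nearer to the WT mean than to the KO mean in 67.3% of the regions ranked higher. Among those ranked lower the share was 70.7%. The share over all 78451 regions was not analysed here, so these shares cannot be called particular to the picked regions.

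Rank changes varied with peak width, a pattern noticed in the data. Width was taken from the del-cIDR lists, which were not part of the comparison, and the 78451 regions were split into 10 classes from narrow to wide. In class 10, with peaks of 830.5 to 4304 bp, 8.53% of regions ranked higher in KO and 1.86% ranked lower. In class 4, with peaks of 304 to 351.5 bp, 7.88% ranked higher and 10.8% lower. Over all classes the shares were 7.55% and 8.24%, so the widest class differed mainly in holding few regions that ranked lower. Class 1, with the narrowest peaks, also had more regions ranked higher (8.36%) than lower (7.29%). The median difference between KO and WT was 0.68 points in class 1, -0.59 in class 4 and 3.78 in class 10. The widest class thus leaned towards higher ranks in KO and the middle towards lower ones. Over all 78451 regions the median difference was 0.70 points, so class 1 lay at that level. Its median percentiles were 26.2 to 27.9, low on the scale, where a region has less room to rank lower.

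The size of this pattern depended on the measure that was ranked. By summit height in tags, 6.90% of the widest class ranked higher and 4.003% lower, with a median difference of 1.25 points. By −log10 p, 8.01% ranked higher and 3.34% lower. In the narrowest class, 7.72% ranked higher and 4.74% lower by tags, with a median difference of 1.74 points, and 8.92% and 6.19% by −log10 p. More regions ranked higher than lower in both the widest and the narrowest class under all 3 measures, and by tags the narrowest class had the larger median difference. Regions of like strength in del-cIDR were also split into 4 classes of width. At middle strengths the narrowest of these leaned towards lower ranks. From percentile 40 to 60 it had 7.14% higher and 12.9% lower by fold, and 6.82% and 8.99% by tags. From percentile 60 to 80 the shares were 4.45% and 14.7% by fold, and 3.07% and 8.60% by tags. From percentile 20 to 40 they were 9.67% and 9.41% by fold, and 8.74% and 7.62% by tags. From percentile 40 to 60 of strength, the widest class had 13.2% higher and 7.31% lower by fold, and 15.1% higher and 11.97% lower by tags. From percentile 60 to 80, it had 7.65% higher and 3.89% lower by fold, but 8.14% higher and 10.1% lower by tags. The excess of higher ranks past the gap was thus lost there by tags. The median difference by tags was still 3.20 points in this widest class, against -0.91 to -0.22 in the narrower ones.

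**Figure D5:**
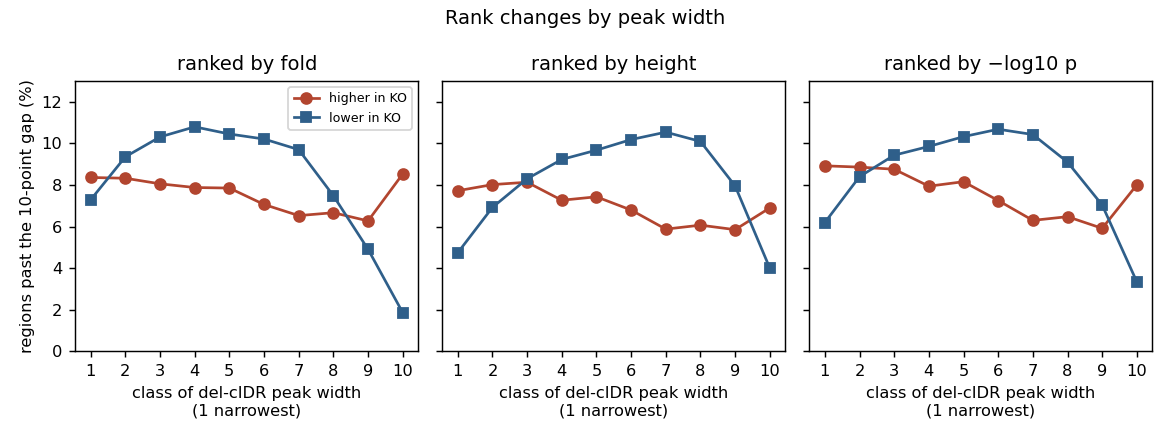
Share of the 78451 regions called in all 6 libraries that ranked at least 10 points higher (red) or lower (blue) in KO (y axis, percent), by class of peak width in the del-cIDR lists (x axis, 1 is narrowest), ranked by fold, by height in tags and by −log10 p. In the narrowest and the widest class the red points lie above the blue ones in all panels, in the widest at 8.53% against 1.86% by fold, 6.90% against 4.003% by height and 8.01% against 3.34% by −log10 p.

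Neighbouring regions gave opposite pictures by fold and by tags. For 14961 pairs of adjacent regions 1 to 5 kb apart, the KO minus WT difference in percentile had a Pearson r across pairs of -0.27 by fold and 0.21 by tags. The differences between replicates had r of -0.14 in KO and -0.16 in WT by fold, and of 0.000166 and -0.00417 in the same order by tags. Pairs share a library and its local background, and they are not independent. For 20720 pairs 20 to 100 kb apart, r was 0.03 by fold and 0.06 by tags. In tags, the differences of close neighbours between KO and WT thus went together weakly, and those between replicates did not.

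Regions with a neighbour also differed from single ones in the direction of their rank changes. Of 29775 regions with another within 5 kb, 8.61% ranked higher in KO and 5.99% lower by fold, against 6.90% and 9.61% of the 48676 without one. By tags the shares were 7.33% and 7.76% with a neighbour and 6.81% and 8.41% without. The excess of higher ranks among regions with a neighbour was seen by fold and not by tags.

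Fold and tags picked overlapping sets. Of the 5925 regions ranked higher by fold, 3638 (61.4%) were also higher by tags, and they made up 66.2% of the 5496 picked by tags. Of the 6462 ranked lower by fold, 4351 (67.3%) were lower by tags, or 67.9% of the 6405 picked by tags. Only 3 regions ranked higher by fold were lower by tags, and none the other way round.

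The reference autosomes were alike in these measures. The WT-only share of regions called in both WT libraries ran from 12.2% on chromosome 4 to 14.6% on chromosome 13. The KO-only share of regions called in both KO libraries ran from 3.02% on chromosome 7 to 3.66% on chromosome 16. The left-out chromosomes differed, with WT-only shares of 7.38% on chromosome 6, 7.54% on chromosome 8 and 10.4% on chromosome 11, and KO-only shares of 7.70%, 6.82% and 4.79% in the same order. With all chromosomes ranked together, 12.8% of common regions on chromosome 6 ranked higher in KO and 4.56% lower, against 5.85% to 7.97% higher and 7.45% to 9.83% lower on the reference autosomes. Copy number of these chromosomes was not analysed here.

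Along the reference autosomes, 2 stretches that were picked after seeing the data held more losses than most. On chromosome 12 from 18 to 24 Mb, 88 of 331 regions with calls in both WT libraries were WT-only (26.6%), and 1 of 196 with calls in both KO libraries was KO-only. The median 1 Mb window, among 1643 with at least 20 regions called in both WT libraries, had a WT-only share of 13.5%, with quartiles of 10.4% and 16.4%. Among the 190 common regions of the stretch, 27 ranked lower in KO (14.2%) and 7 higher (3.68%). Over all common regions the shares were 7.99% and 7.29%. The stretch also held 3 of the 10 highest WT-only regions of the reference autosomes, among them the one on chromosome 12 described above. Of 87 WT-only regions there in the merge of all 6 libraries, 46 (52.9%) had calls in both del-cIDR libraries, against 31.3% over all reference autosomes.

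A longer stretch on chromosome 13, from 62 to 71 Mb, showed losses in rank and not in calls. Of its 451 common regions, 58 ranked lower in KO (12.9%) and 17 higher (3.77%), against 7.99% and 7.29% of all common regions. Its WT-only share was 13.6%, near the median window, and 5 of 485 regions called in both KO libraries were KO-only (1.03%). It held 4 of the 15 regions ranked most lower in KO, including the one with the widest gap. The median percentile of its common regions was 59.97 and 58.1 in KO and 63.8 and 64.1 in WT, so the stretch as a whole differed by a few points and single regions by far more.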

How the data were processed

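ATAC-seq peaks of 2 Alkbh5 KO and 2 WT libraries were compared, with 2 Alkbh5 del-cIDR libraries as outside values. Groups and replicate numbers came from the sample titles. The authors deposited 1 peak list per library. MACS2, BWA, fastp, featureCounts, Picard and SAMtools and the build GRCm39 are named, per the submitters' processing notes. Their versions and settings, and any shift of reads to the cut site, were not given in the sources used here. The deposited fold is a ratio of summit height to local background, and the deposited significance is −log10 of a p-value and of a q-value; the deposited score was not used. No list held a q above 0.05. Fold and −log10 p belong to a peak's own list and were used only to rank or filter peaks in it. Under the form of both that MACS2 uses, summit height solved to a whole number of tags within 0.1 in 100% of peaks. Relative depth was the solved background over the smallest peak width in a list, assumed to be the fragment length; total reads were not analysed here.

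Peaks were merged per chromosome with Python 3.11.15, numpy 2.4.6, pandas 2.3.3 and scipy 1.17.1, and drawn with matplotlib 3.10.9. Where a library had several peaks in a region, the one of highest fold was used. Peaks on spike-in sequence (named dm) were kept apart. The steps were tested on simulated data. No test was made for single regions or counts. Alternatives were lists of equal length, −log10 q of at least 5, peaks of at least 250 bp, merging at 100 bp overlap or over all 6 libraries, all chromosomes, gaps of 5 and 20 points, other ranked measures and leaving out each library.

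Named regions were the 10 KO-only and 10 WT-only regions with the highest lower list percentile, the same among those at least 250 bp wide, and the 15 common regions of each direction with the widest gap. The rule also asked for regions at gene starts and for gene and cell marker lists, which were not analysed here because no annotation of GRCm39 was used. Regions and lists were chosen with earlier results of these data known, and the replicate reading, width, neighbours and stretches were examined after seeing the data.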

Additional observations from a re-analysis of the deposited data

Results flagged for a closer look

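Peaks on the spike-in sequence, which the comparison did not use, were more numerous in KO than in WT. KO replicate 1 held 2082 of them and KO replicate 2 held 1977, above the 1679 and 1568 of the WT libraries. The means were 2030 ± 74.2 in KO and 1624 ± 78.5 in WT (SD, n = 2), while the mouse lists were longer in WT. The del-cIDR libraries held 1199 and 1104 spike-in peaks, the fewest of the series. Their mouse lists were also short, with 126699 and 124404 peaks on the reference autosomes. Few spike-in peaks thus did not go with long mouse lists across the series. The number of reads on spike-in sequence was not analysed here.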

How the results depend on the processing

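The 4 counts of the comparison moved by over 1.5 times under some settings. Most settings also changed the number of regions counted over, which was 195859 for calls and 86615 for ranks in the main comparison. KO-only and WT-only regions numbered 6970 and 8376 of 162423 with lists of equal length by fold. With lists of equal length by height, a setting added after seeing the data, they numbered 7277 and 8462 of 160602. With peaks of at least 250 bp, 6803 of 111934 regions were WT-only and 3169 were KO-only, so the counts lay nearer each other than in the main comparison. Of 50136 common regions, 3221 then ranked higher and 3692 lower in KO, against 6312 and 6918 of 86615 in the main comparison. Over all chromosomes KO-only regions numbered 4941 of 247437. Gaps of 5 points gave 12229 higher and 11390 lower, so that the larger direction changed, and gaps of 20 points gave 1653 and 2549. Leaving out 1 library asks for fewer calls, and counts rose in each such case. KO-only and WT-only regions numbered 11496 and 28324 without KO replicate 1, 13228 and 22099 without KO replicate 2, 6764 and 31806 without WT replicate 1, and 6297 and 37718 without WT replicate 2. These were counted over 175997 to 189145 regions. Of 89689 to 98870 common regions, 12288 to 14347 ranked higher and 12056 to 13974 lower. WT-only outnumbered KO-only regions under every setting. The settings not named here stayed within 1.5 times. No paired analysis was possible because the counts come from no test and the replicate numbers only name samples. Depth limits what can be said of weak summits, which made up most regions called in 1 genotype.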
